A study of Mus musculus with 35 samples.

Results

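Interscapular brown adipose tissue (iBAT) of 5 mice held in the cold for 2 days was compared with iBAT of 5 mice held there for 1 day, across all genes of the count table. These 10 libraries are part of a time course of 35, which also holds room temperature controls and mice after 6 hours, 3, 4 and 5 days. All mice were C57BL/6J males aged 9 to 10 weeks on a chow diet. Both groups were kept at 6 °C in a rodent incubator, alone in static cages without nesting material, so they shared temperature and housing and differed in the time spent there. Each library came from 1 whole iBAT pad of 1 mouse, trimmed of white fat, and read the 3′ ends of polyadenylated RNA. The controls, kept at 24 °C, took no part in the test and are given only to place the levels.

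Brown adipocytes burn lipid and glucose in mitochondria that Ucp1 uncouples from ATP synthesis. Cold reaches them through noradrenaline, beta-adrenergic receptors and protein kinase A (PKA), which switches on a rapid set of genes within hours, while enzymes of lipid synthesis and oxidation, growth of vessels, entry of macrophages and division of progenitors follow with longer exposure. The step from the first to the second day therefore asks which genes were still moving once the acute response was under way.

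The 10 libraries held between 3846016 and 6047247 counts, so that 1 read corresponded to 0.151 to 0.289 CPM, the count of a gene scaled to a common library size. Defining brown adipocyte genes were high in all of them, with 4131 to 9018 CPM of Ucp1 and 1816 to 3080.3 CPM of Cidea. Mitochondrial genome transcripts took 34.6% to 46.2% of the counts, with overlap between the groups. Gm42418, a transcript that overlaps ribosomal RNA sequence, took 7.88%, 9.83%, 9.29%, 11.1% and 11.4% of the counts of 1-day mice and 15.8%, 14.4%, 12.1%, 12.2% and 11.7% of those of 2-day mice, so that every 2-day library was above every 1-day library (log2 fold change 0.43, adjusted p = 0.25). With it and the mitochondrial genes removed before scaling, 136 genes were called, 129 of them among the 130 described next; the part of this share in the results was not tested otherwise. A pair of libraries stood apart on the first principal components, the 2-day mouse of replicate 1 and the 1-day mouse of replicate 4, and the number of calls, and the fold change of several genes that these mice moved, are given without them. In whole tissue, fewer cells of a type and less RNA per cell cannot be told apart.

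Of 10274 genes with enough counts to be tested, 130 (1.27%) passed an adjusted p of 0.05 in edgeR's quasi-likelihood test. Expression was higher after 2 days in 75 of them (0.73%) and lower in 55 (0.535%). The rises were larger, with a median log2 fold change of 0.96 against −0.71 for the falls, and 35 genes rose and 12 fell at least 2-fold. The 5 mice of one group did not overlap the 5 of the other in 63 of the genes that rose and in 51 of those that fell. Over all genes tested, 434 (4.22%) were separated, 206 (2.01%) upwards and 228 (2.22%) downwards, and the median log2 fold change was 0.0036. Of the called genes, 120 were protein coding. The 12 largest changes in each direction named below were picked only among fully separated genes, so for them separation is no finding.

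How many genes were called depended on single mice. Without the 1-day mouse of replicate 1 there were 29 calls, without the 2-day mouse of replicate 2 there were 49, without the 1-day mouse of replicate 4 there were 61, and without the 2-day mouse of replicate 3 there were 67. Leaving out the 1-day mouse of replicate 2 gave 76, and leaving out the 2-day mouse of replicate 5 gave 78. Without the 2-day mouse of replicate 1 the number rose to 206. Without both libraries that stood apart, 134 genes were called, 82 of them among the 130. All 130 genes kept their sign in each of the 10 leave-one-out fits. They had been picked on all 10 mice, which favours a kept sign, so this says little about direction. Of the 130, 28 were called in all 10 fits and 44 in at least 9, and the highest adjusted p that any of them reached there was 0.14. In 9 other settings of the test, the scaling, the filter or the groups fitted, 58 of the 130 were called in all 9. For each gene below that was not called in all 10, the number of those fits that called it is given.

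**Figure D1:**
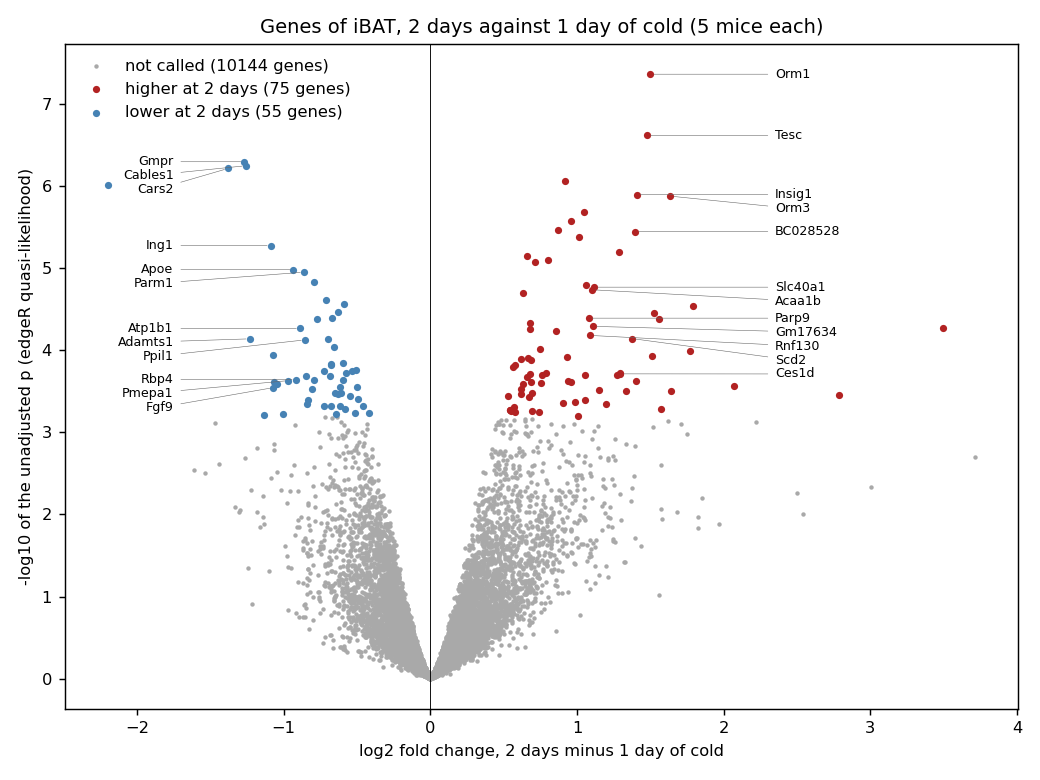
Each point is 1 of 10274 genes, with the log2 fold change of 2 days minus 1 day of cold on the x axis and −log10 of the unadjusted p on the y axis. The 75 genes called higher (red) reach further from 0 than the 55 called lower (blue), and the names mark the 12 largest called changes in each direction whose counts average 50 or more and whose groups are fully separated.

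**Figure D2:**
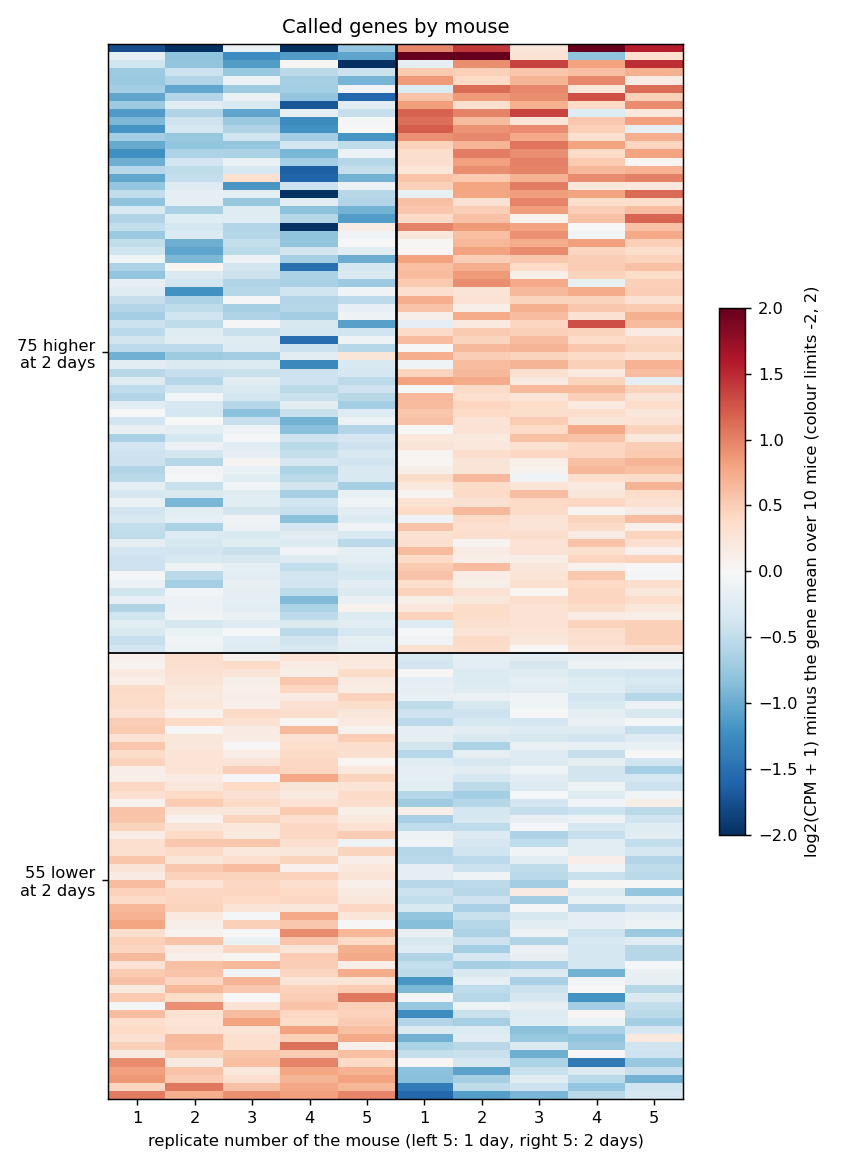
Rows are the 130 called genes in the order of their fold change and columns the 10 mice, coloured by log2(CPM + 1) minus the mean of the gene. The 1-day mouse of replicate 4 is the deepest blue in several of the upper rows, and the 2-day mice of replicates 1 and 2 are the darkest red in the second row, Top2a.

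The gene with the smallest p-value was Orm1, which with Orm3 encodes orosomucoid, an acute-phase glycoprotein of plasma. Orm1 stood at 32.2, 30.2, 39.9, 31.8 and 22.3 CPM in the 1-day mice and at 99.2, 102, 88.9, 65.5 and 86.7 CPM in the 2-day mice (log2 fold change 1.50, SE 0.16, adjusted p = 0.00044). Orm3 stood at 19, 26.3, 36.4, 22.8 and 12.9 and at 60.4, 73.7, 77.3, 100.0 and 56.1 CPM (log2 fold change 1.64, SE 0.22, adjusted p = 0.0015). Every 2-day mouse was above every 1-day mouse for both. The pair are neighbours on chromosome 4 (GRCm38, Orm1 at 63344560 to 63348163 and Orm3 at 63356162 to 63359511) with near-identical sequences, and how reads were divided between them is uncertain. At room temperature their medians were 18.3 and 9.54 CPM, and after 6 hours 21.7 and 10.2 CPM.

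Tesc, which encodes the calcium-binding protein tescalcin, moved from 7.45, 8.93, 8.98, 12.3 and 11.1 to 22.6, 26.3, 35, 28.7 and 22 CPM (log2 fold change 1.48, SE 0.18, adjusted p = 0.0012), with no overlap and medians of at most 3.64 CPM at room temperature and after 6 hours. Slc40a1, the iron exporter ferroportin, held 20.1, 14, 20.3, 16.2 and 28.3 CPM at 1 day and 29.2, 46, 48.5, 51.3 and 40.2 CPM at 2 days (log2 fold change 1.12, SE 0.19, adjusted p = 0.0073). The lowest 2-day mouse was only slightly above the highest 1-day mouse. BC028528, an uncharacterised protein, held 20.5, 21.3, 24.6, 9.23 and 21.9 and 36.8, 60.00, 62.2, 49 and 50.6 CPM (log2 fold change 1.40, SE 0.20, adjusted p = 0.0028), and the lowest value was that of the 1-day mouse of replicate 4, without which the log2 fold change was 1.23. The other named rises were Rnf130, an E3 ubiquitin ligase (log2 fold change 1.09, called in 8 fits), and Gm17634 (1.11, called in 9 fits). The largest fold change of all was that of the unannotated transcript Gm32468, at 0.186, 0, 2.69, 0 and 1.38 and then 6.97, 9.77, 3.79, 22.4 and 11 CPM. Its log2 fold change was 3.49 (SE 0.65), or 4.66 without the 1-day mouse of replicate 3, and it was called in 9 fits.

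Insig1 and Scd2, of sterol and fatty acid supply, were among the largest rises. Insig1 encodes the membrane protein that retains the sterol sensor SCAP and so limits its own pathway. It held 31.5, 48.1, 47.6, 39 and 69.1 CPM in 1-day mice and 96, 153, 143, 98.2 and 131 CPM in 2-day mice (log2 fold change 1.41, SE 0.19, adjusted p = 0.0015). All 2-day mice were above all 1-day mice, and the median stayed between 131 and 164 CPM from 2 days on. Scd2, a stearoyl-CoA desaturase, held 20.7, 30.9, 54.6, 13.6 and 22.1 and 65.1, 62.8, 70.9, 84.5 and 88.5 CPM (log2 fold change 1.37, SE 0.26, adjusted p = 0.017, called in 9 fits). The groups did not overlap, although the 1-day mouse of replicate 3 came close. Its paralogue Scd1 was variable and was not called (1914, 1710.0, 2468, 1978 and 1233 against 2310.3, 1388, 942, 2494 and 1418 CPM; log2 fold change −0.12, SE 0.24, adjusted p = 0.85).

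Of 23 genes of cholesterol synthesis and uptake that were tested, Insig1 was the only one called, and 20 had a positive fold change, with a list median of 0.42 on the log2 scale against 0.0036 for all genes. Pmvk, phosphomevalonate kinase, came nearest (log2 fold change 0.66, SE 0.17, adjusted p = 0.062), while Hmgcs1, which makes the HMG-CoA of the pathway, had a negative value (log2 fold change −0.27, SE 0.13, adjusted p = 0.32). Of 22 genes of de novo lipogenesis and elongation, 14 were positive and only Scd2 was called. Fasn, fatty acid synthase, ranged from 639 to 3393 CPM among 1-day mice and from 790.1 to 3616 CPM among 2-day mice (log2 fold change −0.0062, SE 0.42, adjusted p = 1). Acly, which supplies its acetyl-CoA, ranged from 149.7 to 879 and from 113 to 891 CPM (log2 fold change 0.033, SE 0.51, adjusted p = 0.99). Their 95% intervals reached from −0.90 to 0.89 and from −1.06 to 1.12, so that a change of 2-fold either way was not resolved for Acly.

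Fatty acid oxidation had a pair of called genes among 31 tested, both higher, and a list median of 0.18 with 23 members positive. Acaa1b is a thiolase of peroxisomes. It held 21.2, 11.7, 20.8, 13.9 and 10.8 CPM at 1 day and 40.4, 32.1, 33.2, 32.4 and 31.2 CPM at 2 days (log2 fold change 1.10, SE 0.18, adjusted p = 0.0075). The groups did not overlap, and its near-identical neighbour Acaa1a was not called (log2 fold change 0.13, SE 0.14, adjusted p = 0.7), so the division of reads between them is uncertain. Cpt2, the carnitine acyltransferase of the inner mitochondrial membrane, held 217, 201, 212, 208 and 217 CPM in 1-day mice and 213, 318, 311, 350.4 and 352 CPM in 2-day mice (log2 fold change 0.55, SE 0.13, adjusted p = 0.046, called in 1 fit). All 2-day mice but replicate 1, which lay within the 1-day range, were above all 1-day mice. Hadh (log2 fold change 0.44, SE 0.11, adjusted p = 0.058), also without overlap between groups, and Acad11 (log2 fold change 0.69, SE 0.20, adjusted p = 0.1) did not pass. Cpt1a had a negative value (log2 fold change −0.67, SE 0.23, adjusted p = 0.17).

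Further called genes of fuel and lipid handling were grouped by role after their values had been seen. Pdk4, the kinase that closes pyruvate dehydrogenase to carbohydrate, held 159, 175, 148, 56.2 and 249 and 445, 403, 392, 224 and 336 CPM (log2 fold change 1.20, SE 0.27, adjusted p = 0.042, called in 3 fits), and the 1-day mouse of replicate 5 overlapped the lowest 2-day mouse; without the 1-day mouse of replicate 4 the log2 fold change was 0.98. Ces1d, a carboxylesterase that hydrolyses triacylglycerol, held 132, 166, 165, 46.7 and 127 and 169, 323, 335, 329 and 410.5 CPM (log2 fold change 1.30, SE 0.27, adjusted p = 0.029, called in 5 fits); without the 1-day mouse of replicate 4, the lowest of all, the log2 fold change was 1.08. Retinol metabolism was represented by Retsat, retinol saturase (138, 152, 162, 135 and 149 against 195, 257, 312, 309 and 272 CPM; log2 fold change 0.87, SE 0.13, adjusted p = 0.0028), and Adh1, alcohol dehydrogenase (26.5, 26.3, 31.8, 28.2 and 25.3 against 38.5, 60.5, 61.7, 56.3 and 52.3 CPM; log2 fold change 0.96, SE 0.14, adjusted p = 0.0025). Neither overlapped between groups and both were called in all 10 fits. Smaller rises were called in Mgst1, a microsomal glutathione transferase (log2 fold change 0.93, 6 fits), Acsl3, an acyl-CoA synthetase (0.68, 5 fits), and cytosolic isocitrate dehydrogenase Idh1 (0.57, 5 fits). Enzymes that make membrane lipids were called higher too, with Kdsr and Cers2 of ceramide synthesis at 0.69 (4 fits) and 0.57 (2 fits), Crls1, cardiolipin synthase, at 0.58 (1 fit), and Chpt1, choline phosphotransferase, at 0.54 (2 fits).

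Branched-chain amino acid catabolism had no called gene among 18 tested, although 16 were positive with a median of 0.27. The nearest was Hibch of valine breakdown, at 71.6, 67.3, 73.8, 39 and 58.5 and then 79.1, 90.2, 111, 96.9 and 108 CPM without overlap (log2 fold change 0.64, SE 0.15, adjusted p = 0.053). Nuclear subunits of the respiratory chain (36 tested, median 0.084) and the tricarboxylic acid cycle (20 tested, median 0.12) also had no called gene. Atp5e, the epsilon subunit of ATP synthase, lay outside those lists and was called higher (log2 fold change 0.54, SE 0.13, adjusted p = 0.045, 1 fit).

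Several genes known from the interferon response were called higher after 2 days. Many genes that interferons switch on carry the interferon-stimulated response element in their promoters. Rsad2 encodes viperin, an antiviral enzyme of the endoplasmic reticulum and lipid droplets. It held 9.32, 14, 9.87, 18.7 and 15.4 CPM in 1-day mice and 50.1, 44, 56.6, 17.9 and 25.1 CPM in 2-day mice (log2 fold change 1.56, SE 0.28, adjusted p = 0.012, 9 fits). The 2-day mouse of replicate 4 fell within the 1-day range and the other 4 were above it. Cmpk2, a nucleotide kinase and the neighbour of Rsad2, held 2.05, 3.66, 2.15, 3.59 and 2.53 and 6.97, 5.58, 9.56, 5.79 and 5.78 CPM (log2 fold change 1.30, SE 0.27, adjusted p = 0.029, 5 fits), and Irgm2, an immunity-related GTPase, held 2.42, 3.89, 1.62, 3.33 and 4.38 and 7.12, 9.07, 10.8, 5.79 and 5.78 CPM (log2 fold change 1.34, SE 0.29, adjusted p = 0.034, 4 fits). Neither overlapped. Parp9, an ADP-ribosyltransferase known from interferon signalling, held 5.4, 8.02, 7.18, 6.16 and 8.06 and 16.2, 18.8, 11, 14 and 13.3 CPM (log2 fold change 1.08, SE 0.19, adjusted p = 0.012, 9 fits). Rsad2 and Cmpk2 were not called with all 7 groups in one edgeR fit (adjusted p = 0.13 and 0.23) or with the replicate number as a block, and Irgm2 was not called in these or with scaling by library size only. Parp9 was called in all 9 other settings. Exons of Irgm2 overlap those of Igtp on the same strand, and exons of Parp9 lie opposite those of Dtx3l.

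4 of the called genes with the letters of this element before their start (GAAA, then any 2 bases, then GAAA) are shown, because they include Rsad2 and Irgm2. The letters were not in the window of Cmpk2. The stretches are 60 bases of RefSeq promoters on GRCm38.p6, read 5′ to 3′ on the strand of the gene, and capitals mark the match, which lies on either strand.
Rsad2, chr12:26456538-26456597, minus strand: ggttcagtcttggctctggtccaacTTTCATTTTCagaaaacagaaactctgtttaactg
Irgm2, chr11:58214888-58214947, plus strand: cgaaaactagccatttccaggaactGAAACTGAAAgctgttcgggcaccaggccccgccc
Tmem140, chr6:34863058-34863117, plus strand: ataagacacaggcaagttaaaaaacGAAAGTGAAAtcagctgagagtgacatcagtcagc
Cyp4v3, chr8:45333258-45333317, minus strand: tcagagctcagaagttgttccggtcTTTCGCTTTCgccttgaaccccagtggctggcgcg
The match began 120 bases before the start of Rsad2, 64 before Irgm2, 63 before Tmem140 and 129 before Cyp4v3. In windows from 250 bases before to 50 after the start, 5 of the 55 called higher genes with a window (9.09%) held the letters, against 1079 of 27025 genes (3.99%) and 0 of 43 called lower genes. The fifth was Psme1, with its match just after the start. These are matches of letters and were not tested as binding sites. Tmem140 (log2 fold change 0.66, 2 fits) and Cyp4v3, a fatty acid hydroxylase (1.06, 3 fits), were called with smaller changes.

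Of the 16 tested genes of an interferon list, assembled for this comparison around genes that the study names for a macrophage state, Rsad2 was the only one called, and 15 were positive, with a median log2 fold change of 1.04. The uncalled members described next were at low counts. Gbp3, a guanylate-binding GTPase, held 1.3, 1.83, 1.26, 1.8 and 3.45 and 10.6, 6.74, 3.43, 4.21 and 3.76 CPM (log2 fold change 1.62, SE 0.39, adjusted p = 0.053), Ifit2 1.49, 2.29, 2.33, 1.28 and 2.3 and 5, 5.12, 7.03, 2.37 and 3.18 CPM (log2 fold change 1.24, SE 0.34, adjusted p = 0.081) and Isg15, a ubiquitin-like modifier, 0.745, 0.458, 0.898, 0.769 and 2.3 and 3.33, 3.72, 3.97, 1.05 and 3.18 CPM (log2 fold change 1.58, SE 0.45, adjusted p = 0.091). The summed level of the list ran from 73.2 to 133 CPM in 1-day mice and from 99.5 to 234 CPM in 2-day mice, and the groups overlapped.

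Called genes that load or present antigen, grouped after their values had been seen, were Psme1, the alpha subunit of the proteasome activator PA28, Tapbp, which is tapasin, and Cd1d1, which presents lipids. Psme1 held 27, 28.9, 29.3, 30.01 and 31.5 CPM in 1-day mice and 55, 63.5, 50.3, 46.3 and 61.9 CPM in 2-day mice (log2 fold change 0.92, SE 0.12, adjusted p = 0.0014). The groups were far apart and the call held in all 10 fits. Cd1d1 held 64.3, 55.4, 47.2, 45.7 and 43.5 and 104, 139, 123, 65 and 102 CPM (log2 fold change 1.06, SE 0.18, adjusted p = 0.0071), again without overlap. Tapbp (log2 fold change 0.67, SE 0.13, adjusted p = 0.024, 6 fits) and H2-Q10, a class I molecule (log2 fold change 0.69, SE 0.14, adjusted p = 0.025, 5 fits), were called as well, the latter with uncertain assignment among similar class I genes. The 26 proteasome genes listed behaved otherwise, with none called, 23 negative and a median of −0.15. A list of dendritic cell and antigen presentation genes had no call among 7 tested, with 5 positive and a median of 0.20. H2-Eb1, its member with the most counts, was at −0.095. The summed level of this list ran from 146 to 169 CPM in 1-day mice and from 117 to 228 CPM in 2-day mice.

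Of the genes that rose, 38 of 75 had their lowest group median at 1 day, and in 54 of 75 the median at room temperature was above that at 1 day. Among them Adh1 had a median of 132 CPM at room temperature, Psme1 72.2 CPM, Ces1d 359 CPM and Rgs5 304 CPM. Genes that fell were led by transcripts that were low at room temperature, and 36 of the 55 had their lowest group median there. The calls rest on the 1-day and 2-day values, so the choice of genes itself favours these counts of lowest and higher medians. They were not set against all genes tested. Gmpr encodes guanosine monophosphate reductase of purine salvage. It held 5109, 3949, 3502, 4465 and 4872 CPM in 1-day mice and 1566, 1764, 2401, 1909 and 1452 CPM in 2-day mice (log2 fold change −1.27, SE 0.16, adjusted p = 0.0012), compared with a median of 95.5 CPM at room temperature. Cars2, the mitochondrial cysteinyl-tRNA synthetase, held 449.7, 698, 501, 574 and 529 and 126, 235, 248, 195 and 254 CPM (log2 fold change −1.38, SE 0.18, adjusted p = 0.0012), with 20.6 CPM at room temperature. In both the groups were far apart. Exons of Gmpr lie opposite those of Atxn1 and exons of Cars2 opposite those of Naxd. Both partners were called higher, Atxn1 at 1.05 and Naxd at 0.74 (7 fits), and the strand setting of the counting was not stated. Lrrc52, an auxiliary subunit of potassium channels, had the largest fall, from 10.6, 8.24, 9.69, 8.98 and 10.1 to 0.909, 1.63, 1.98, 2.9 and 3.47 CPM (log2 fold change −2.20, SE 0.29, adjusted p = 0.0014), and was listed at a median of 0 CPM at room temperature.

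Cables1, an adaptor of cyclin-dependent kinases, held 66.3, 55.6, 43.6, 65.1 and 61 and 20.7, 17.2, 27.2, 30.3 and 26.9 CPM (log2 fold change −1.26, SE 0.16, adjusted p = 0.0012). Ing1, a chromatin reader, held 134, 148, 119, 206 and 103 and 61.5, 64.6, 78.1, 57.4 and 72.3 CPM (log2 fold change −1.09, SE 0.16, adjusted p = 0.0036; −0.92 without the 1-day mouse of replicate 4). Cdkn1a, which encodes the cell cycle inhibitor p21, held 475, 457, 462, 454 and 388 and 254, 234, 385, 281 and 199.7 CPM (log2 fold change −0.72, SE 0.15, adjusted p = 0.029, 5 fits), with no overlap but with the 2-day mouse of replicate 3 next to the 1-day mouse of replicate 5. Parm1, a mucin-like membrane protein (−0.86), Atp1b1, the beta subunit of the sodium pump (−0.89, 9 fits), Ppil1, a cyclophilin of the spliceosome (−0.86, 9 fits), and Pmepa1, an inhibitor of TGF-beta signalling (−0.97, 3 fits), also fell without overlap.

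Targets of PKA and other acute thermogenic genes had a pair of called members, both lower, among 26 tested. Of the 26, 20 were negative, with a median of −0.17. Gadd45g, a growth arrest protein, held 150.4, 185, 184, 185 and 162 and 118, 126, 92.3, 98.7 and 91.9 CPM (log2 fold change −0.71, SE 0.12, adjusted p = 0.0094), and Nr4a2, an orphan nuclear receptor, held 68.6, 83.4, 88.5, 61 and 66.3 and 49.98, 42.3, 40.03, 54 and 40.2 CPM (log2 fold change −0.70, SE 0.13, adjusted p = 0.017, 7 fits). No mouse overlapped in either. The best known members were not called. Ppargc1a, the coactivator of mitochondrial genes, held 734, 304, 268, 379 and 390.3 CPM at 1 day, with replicate 1 far above the rest, and 254, 184, 369, 119.8 and 373 CPM at 2 days (log2 fold change −0.68, SE 0.29, adjusted p = 0.27). Dio2, which makes active thyroid hormone, held 645, 762, 791, 732 and 864 and 575, 576, 715, 558 and 457 CPM (log2 fold change −0.40, SE 0.13, adjusted p = 0.15), and 4 of the 5 2-day mice were below all 1-day mice. Nr4a1 held 23.5, 27.7, 23.7, 3.85 and 24.2 and 20.7, 4.88, 12.4, 7.11 and 4.91 CPM (log2 fold change −0.98, SE 0.42, adjusted p = 0.26). Its lowest 1-day value was that of replicate 4 and its highest 2-day value that of replicate 1, the libraries that stood apart. Without both, the log2 fold change was −1.70 and it was called (adjusted p = 0.0029), which leaving out these extremes favours. Without the 1-day mouse of replicate 4 alone or the 2-day mouse of replicate 1 alone it was not called (adjusted p = 0.11 and 0.074).

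Ucp1 held 9018, 7847, 7175, 8641 and 6543 CPM in 1-day mice and 4131, 6417, 6996, 7016 and 8325 CPM in 2-day mice. The groups overlapped, the lowest value was that of the 2-day mouse of replicate 1, and the log2 fold change of −0.26 had a 95% interval from −0.62 to 0.11 (adjusted p = 0.51). None of the 23 tested genes of brown adipocyte identity was called, and their median was −0.080. Cidea of the lipid droplet came nearest, with all 2-day mice above all 1-day mice (1953, 1816, 2298, 1875 and 2114 against 2314, 2518, 3080.3, 2808 and 2982 CPM; log2 fold change 0.45, SE 0.13, adjusted p = 0.091). Elovl3, an elongase of very long fatty acids (log2 fold change 0.27, SE 0.19, adjusted p = 0.52), Slc25a34, a mitochondrial carrier (log2 fold change −0.0011, SE 0.13, adjusted p = 1), Ehhadh of peroxisomal oxidation (log2 fold change 0.43, SE 0.24, adjusted p = 0.4), Ffar4, a fatty acid receptor (log2 fold change −0.17, SE 0.30, adjusted p = 0.84), and Sgk1, a kinase (log2 fold change −0.29, SE 0.15, adjusted p = 0.36), were not called.

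**Figure D3:**
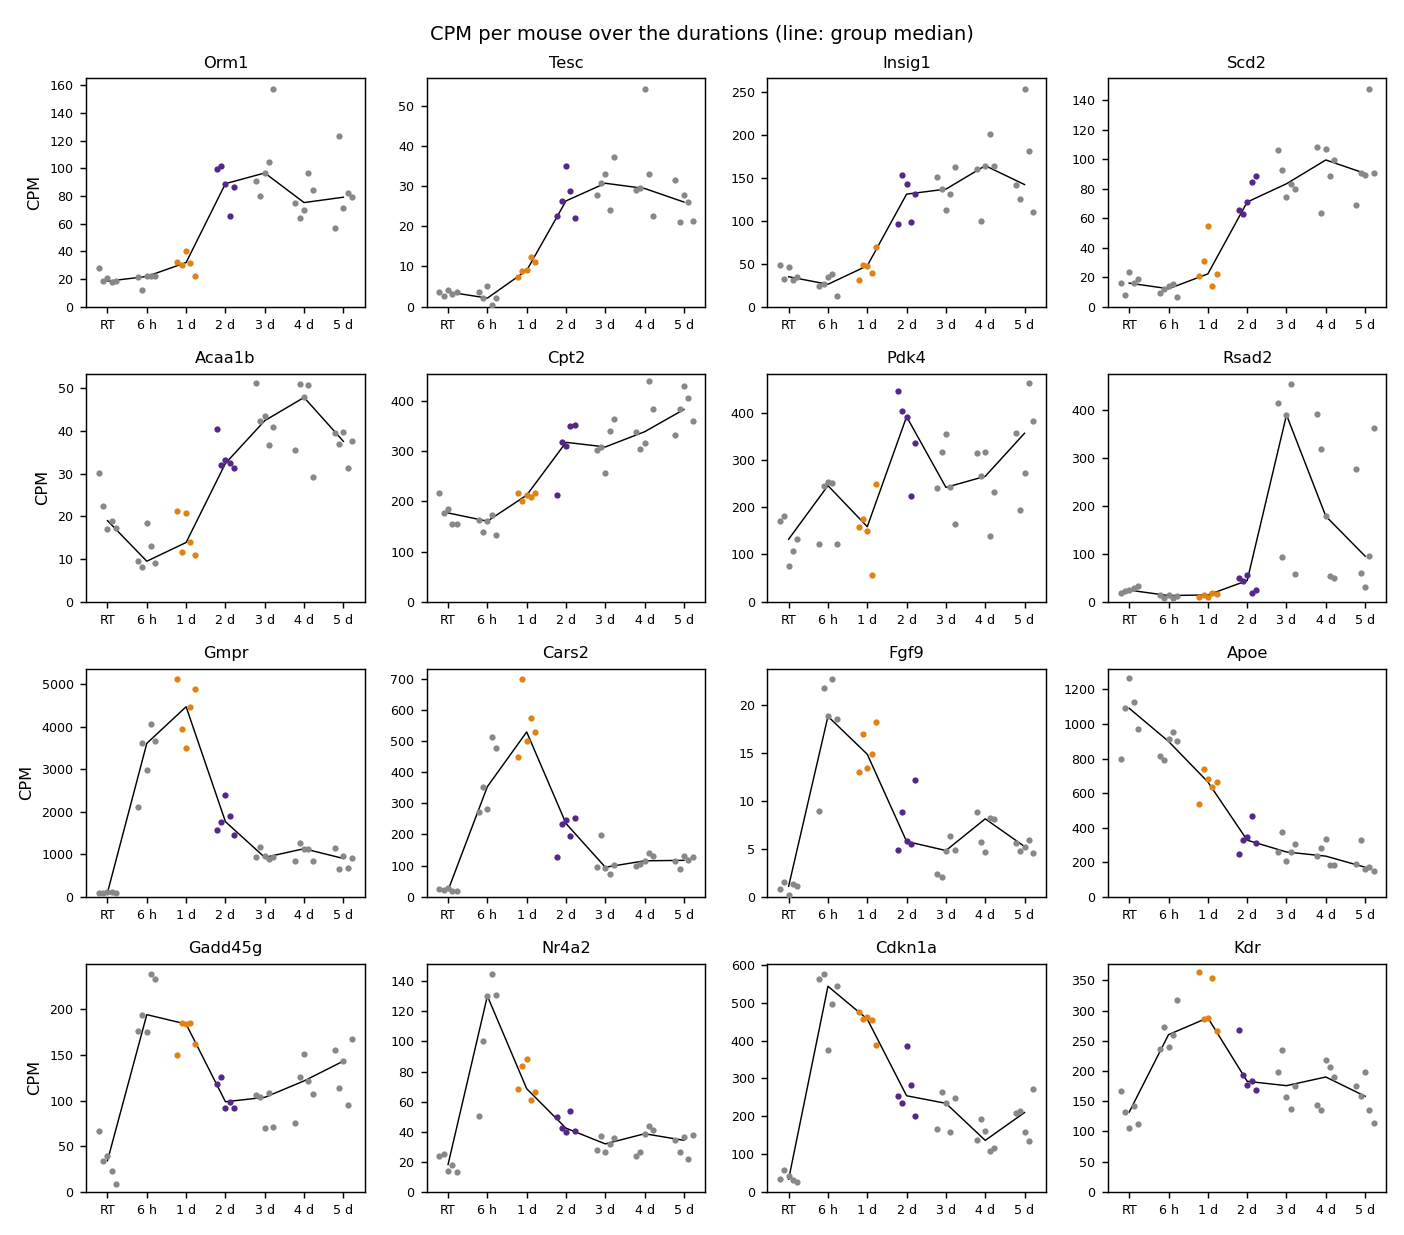
Each panel shows the CPM of 1 gene per mouse (points, 5 in each group) at room temperature (RT) and after each duration of cold, with 1 day in orange, 2 days in purple and a line through the medians. Gmpr, Cars2, Fgf9, Nr4a2 and Cdkn1a are highest after 6 hours or 1 day, whereas Orm1, Tesc, Insig1 and Scd2 are high from 2 days on and Rsad2 is highest after 3 days.

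The falls included secreted factors and carriers. Fgf9 held 13, 16.9, 13.5, 14.9 and 18.2 and 4.85, 8.84, 5.77, 5.53 and 12.1 CPM (log2 fold change −1.07, SE 0.23, adjusted p = 0.032, 3 fits) and Fgf1 26.8, 27.7, 27.3, 27.4 and 23.9 and 14.2, 15.1, 12.3, 18.4 and 18.5 CPM (log2 fold change −0.77, SE 0.14, adjusted p = 0.012, 9 fits), both fibroblast growth factors and both without overlap. Apoe, apolipoprotein E, held 534, 737, 679, 638 and 664 and 249, 327, 345, 469.6 and 314 CPM (log2 fold change −0.93, SE 0.15, adjusted p = 0.0053), and unlike Fgf9 it was highest at room temperature, at a median of 1091 CPM. Rbp4, the retinol carrier of plasma, held 30.4, 27, 32.5, 24.1 and 24.2 and 8.33, 17.2, 12.3, 19.2 and 17.6 CPM (log2 fold change −0.92, SE 0.20, adjusted p = 0.03, 4 fits), or −0.75 without the 2-day mouse of replicate 1. Aqp7, the glycerol channel of adipocytes, held 62.1, 54.5, 61.2, 54.9 and 56 and 39.2, 31.9, 38.2, 42.9 and 34.1 CPM (log2 fold change −0.63, SE 0.11, adjusted p = 0.012, 9 fits). Fabp3, a fatty acid binding protein, held 1676, 1386, 1341, 2569 and 2095 and 1204, 859, 1239, 993 and 796 CPM (log2 fold change −0.83, SE 0.19, adjusted p = 0.039, 3 fits), and without the 1-day mouse of replicate 4 it was at −0.67 and not called (adjusted p = 0.094). All of these were separated between the groups. Of 27 genes of lipolysis and the lipid droplet, Fabp3 alone was called. Fgf1 and Rbp4 were the only called members of 17 tested adipokine and white-like adipocyte genes. Of the 17, 8 were positive and 9 negative, with a median of −0.0041.

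Vascular and matrix genes moved in both directions. Kdr, the main receptor for VEGF on endothelium, held 365, 287, 288, 354 and 266 CPM in 1-day mice and 268, 193, 177, 183 and 169 CPM in 2-day mice (log2 fold change −0.65, SE 0.14, adjusted p = 0.035, 3 fits), with the 2-day mouse of replicate 1 alone inside the 1-day range. It was the only called gene of 19 endothelial and angiogenic genes tested, whose median was −0.031. Rgs5, a marker of pericytes, rose from 158, 177, 160.0, 151 and 177 to 271, 326, 271, 215 and 231 CPM (log2 fold change 0.68, SE 0.12, adjusted p = 0.013, 9 fits), while the smooth muscle genes Acta2 and Tagln beside it on its list of 9 were at 0.0099 and −0.19 and were not called. Adamts1, a secreted metalloproteinase that cleaves matrix, fell (40.8, 23.4, 31.8, 41.8 and 27.6 against 20.9, 16, 13, 7.11 and 11.9 CPM; log2 fold change −1.23, SE 0.23, adjusted p = 0.017, 9 fits), as did Adam12 (log2 fold change −0.59, SE 0.12, adjusted p = 0.026, 6 fits). Sparcl1, a matricellular glycoprotein, rose (82.2, 76, 63.7, 80.8 and 58.9 against 147, 128, 123, 109 and 123 CPM; log2 fold change 0.80, SE 0.12, adjusted p = 0.0045). Of 24 collagen and matrix genes, Adam12 was the only one called while 19 were positive, with a median of 0.40. The summed level of this list ran from 1695 to 2152 CPM in 1-day mice. In 2-day mice it was 2546, 2625, 2030, 1447 and 2158 CPM, so the groups overlapped and replicate 4 lay below all 1-day mice. Col1a1 and Col3a1 were at 0.42 (adjusted p = 0.36) and 0.54 (adjusted p = 0.21). Single called genes of the cytoskeleton, picked after their values were seen, went both ways, with Vim, vimentin, at 0.58 (7 fits), Sptan1, a spectrin, at −0.42 (0 fits) and Myo1c, a myosin, at −0.53 (6 fits). The calcium-binding protein genes S100a11 and S100a10 were called higher at 1.01 and 0.69 (4 fits).

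Markers of proliferation and of lipid-associated macrophages spread widely among the 2-day mice. Top2a, the topoisomerase of dividing cells, held 3.35, 1.83, 1.08, 1.28 and 1.38 CPM at 1 day and 29.5, 19.3, 5.05, 1.84 and 5.2 CPM at 2 days (log2 fold change 2.78, SE 0.62, adjusted p = 0.035, 3 fits). The mice of replicates 1 and 2 carried most of the change, replicate 4 lay within the 1-day range, and without replicate 1 the log2 fold change was 2.11. Of 13 cell cycle genes tested it was the only one called (median 0.42), and 28 more of the list had too few counts. Among those, Mki67 held 0.373, 1.15, 0.359, 1.28 and 1.38 and 12.3, 6.05, 0, 1.58 and 3.18 CPM and Birc5, survivin, 0.186, 0.458, 0, 0 and 0 and 3.33, 3.49, 0.901, 0 and 0.578 CPM. When log2 CPM was permuted over every split of the 10 mice (exact, two-sided), Birc5 differed by 1.58 (p = 0.032, or 0.16 after adjustment over the 5 genes so tested) and Mki67 by 1.26 (p = 0.24).

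Lgals3, galectin-3, held 7.83, 12.4, 3.77, 24.6 and 37.8 CPM in 1-day mice and 266, 151, 15, 8.42 and 27.8 CPM in 2-day mice (log2 fold change 2.50, SE 0.78, adjusted p = 0.13), and Gpnmb, a glycoprotein of lipid-laden macrophages, held 1.68, 2.98, 1.44, 7.44 and 2.99 and 84.2, 31.2, 1.08, 2.63 and 2.6 CPM (log2 fold change 3.01, SE 0.92, adjusted p = 0.12). For both, the 2-day mice of replicates 1 and 2 were above all others and the other 3 lay within or near the 1-day range. Without the 2-day mouse of replicate 1 their log2 fold changes were 1.59 (Lgals3) and 1.57 (Gpnmb), and without both libraries that stood apart 1.76 and 2.08, none of them called. Trem2, the lipid receptor of these cells, held 0, 0, 0.18, 0.256 and 1.61 and 6.21, 4.19, 0.361, 0.263 and 0.289 CPM (difference in log2 CPM 1.32, exact permutation p = 0.19), and Spp1, osteopontin, held 0, 0.458, 0, 0 and 0 and 11.4, 5.35, 0, 0 and 0.289 CPM (difference 1.70, exact permutation p = 0.21). The differences of Trem2 and Spp1 were taken with a prior count of 2, which shrinks them at such low counts. They are not on the scale of the fold changes of Lgals3 and Gpnmb. Of 16 genes tested on the list of this macrophage type none was called higher, and Apoe, which adipocytes also express, was called lower. Of the 16, 12 were positive, with a median of 0.36. At an unadjusted p under 0.05 in edgeR's test, 7 were higher and 1 lower, beside 1635 of all 10274 genes in either direction. The summed level of the list went the other way, from 9644 to 11338 CPM in 1-day mice. In 2-day mice it ran from 8290 to 9512 CPM, without overlap. Lgals3, Gpnmb, Trem2 and Spp1 held at most 266 CPM in any of these mice, so more abundant genes made up most of the sum. It is no measure of those markers. Resident macrophage genes had no call among 15 tested and a median of 0.06.

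**Figure D4:**
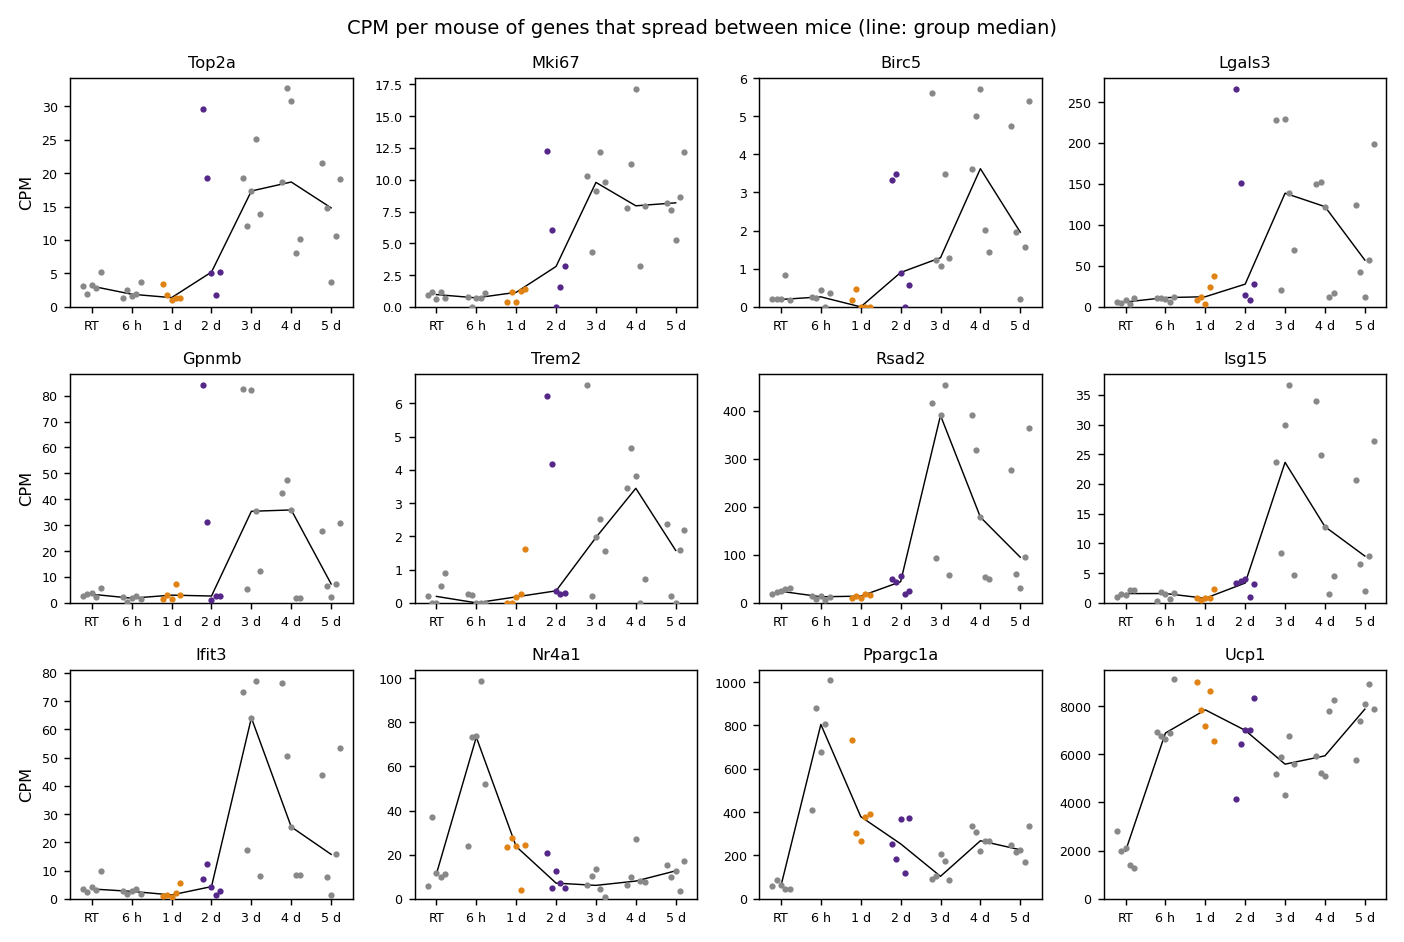
Panels as in the time course of single genes, for genes whose mice differ widely. In Top2a, Mki67, Lgals3, Gpnmb and Trem2 the 2-day mice of replicates 1 and 2 lie above the other 3, while Ucp1, Ppargc1a and Nr4a1 overlap between the orange 1-day and purple 2-day points.

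**Figure D5:**
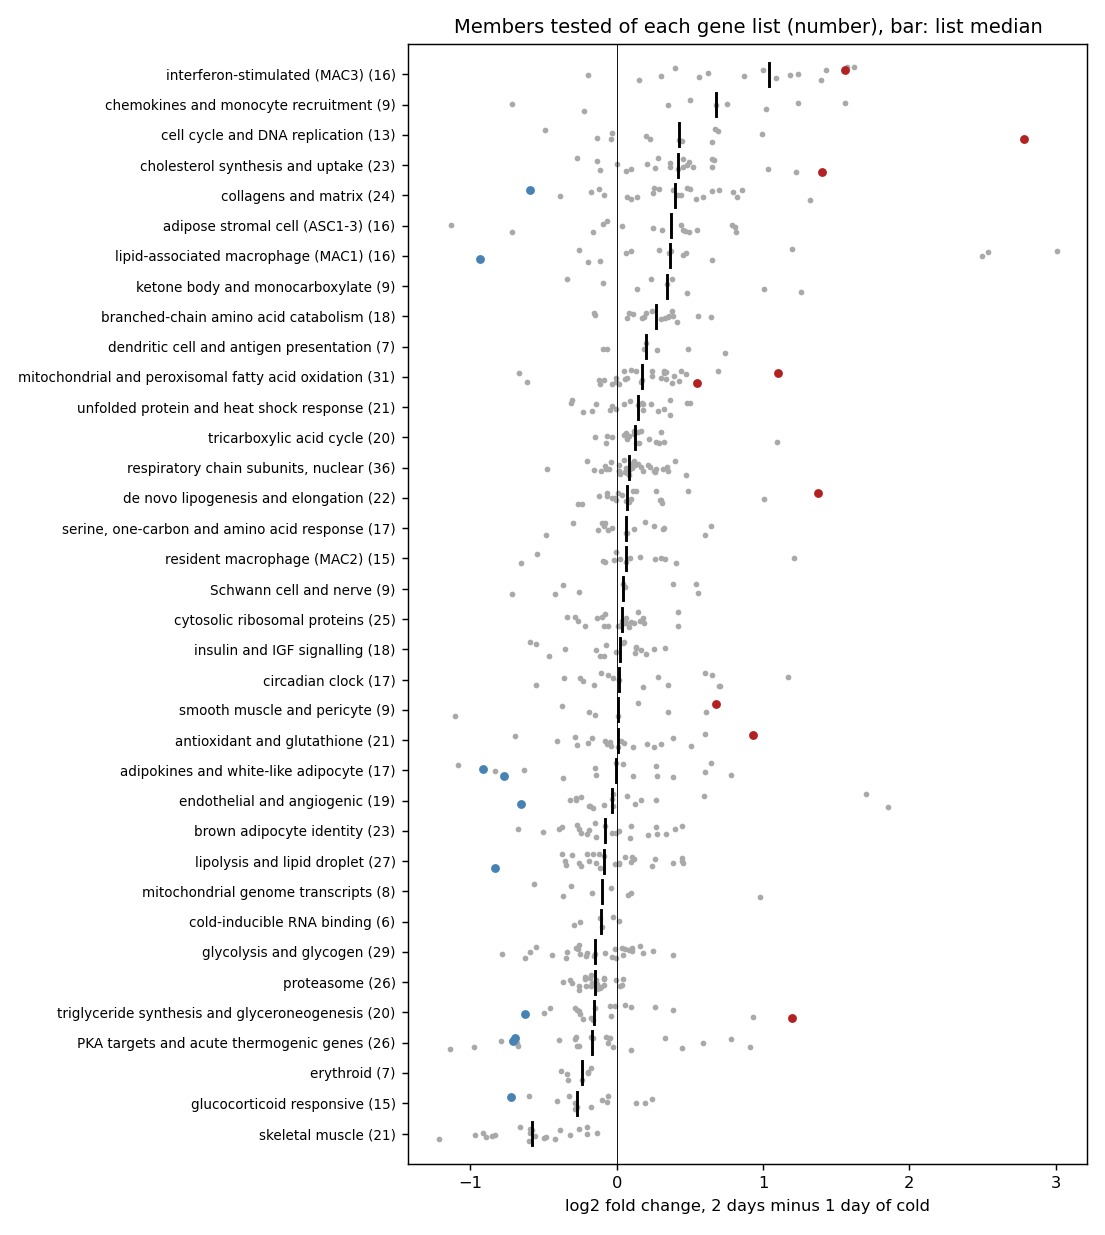
Each row is a gene list with at least 5 members tested (number in brackets), each point the log2 fold change of a member between 2 days and 1 day, and the bar the median of the list. Called members are red (higher) or blue (lower); most lists hold none or 1, and medians run from −0.58 for skeletal muscle to 1.04 for the interferon list.

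Across all 39 lists, 9 members were called higher and 10 lower of 623 tested. This is 3.05% of the members, beside 1.27% of all genes, and their median log2 fold change was 0.048. The lists were chosen with earlier results of these data known, which favours a higher share, so the contrast is no result about the lists. Skeletal muscle genes, which mark muscle left on the pad, were negative in 21 of 21 with none called. Their summed level ran from 236 to 2543 CPM in 1-day mice and from 149 to 872 CPM in 2-day mice, the highest being the 1-day mouse of replicate 5, and without it Ttn, titin, turned from −0.58 to 0.35. The part of muscle RNA in the called genes was not tested. Luminal epithelial genes reached at most 1.36 CPM in sum, and none could be tested. Glucocorticoid-responsive genes had 1 call among 15, Cdkn1a, with a median of −0.27. Genes of the circadian clock had none among 17 and a median of 0.016. Erythroid genes were negative in 7 of 7 (median −0.24), and chemokines were positive in 7 of 9 (median 0.68), with no call in either. The summed level of the chemokine list ran from 108 to 222 CPM in 1-day mice. In 2-day mice it was 340, 288, 137, 93.2 and 154 CPM, so only replicates 1 and 2 lay above the 1-day range.

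Samples that the test did not use show where these genes stood at other durations. Among all tested genes, 48.1% had a higher median after 3 days than after 6 hours. Of the 75 genes called higher after 2 days, 69 (92%) did, and of the 55 called lower, 52 (94.5%) had a lower median after 3 days than after 6 hours. After 5 days the same held for 67 of 75 and 49 of 55. Against room temperature, 57 of the 75 called higher (76%) and 42 of the 55 called lower (76.4%) had a higher median after 3 days, beside 49.9% of all genes. Gmpr and Cars2 had medians of 924 and 94.6 CPM after 3 days, above those at room temperature, while Apoe had 259 CPM, below it. These shares are descriptions of medians without a test.

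Letters of other elements were sought in the same windows on both strands. The cAMP response element TGACGTCA was in the windows of 2 of 43 called lower genes with one (Gm16062 and Ttc19, 4.65%), 0 of 55 called higher and 2.03% of all genes, and the shorter TGACGT, which the full element contains, in 6, 3 and 8.37%. The E-box CACGTG was in 7 of 43, 7 of 55, among them Insig1, and 8.09%. A sterol regulatory element and a direct repeat of AGGTCA with 1 base between were in no window of a called gene and in 0.0999% and 0.0481% of all.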

How the data were processed

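The authors aligned reads with STAR 2.6.1d to GRCm38 and counted them per gene with HTSeq 0.11.2 on the Ensembl GRCm38.98 annotation, and they deposited raw counts, 1 column per mouse, without normalization. Whether the counting used strand was not stated. The 5 columns of 2 days were tested against the 5 of 1 day with edgeR 4.0.16 in R 4.3.3 (filterByExpr, TMM normalization, quasi-likelihood test), and a gene was called at a Benjamini-Hochberg adjusted p below 0.05. Adjusted p-values of the report come from this test unless another fit or the permutation test is named beside them. The study states no test for this pair of durations. Printed CPM values use TMM scaling over all 35 libraries, which differs from that of the 10 by at most 1.23%. A standard error is the fold change divided by the root of its F statistic.

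Named genes are the 12 largest called changes in each direction with a symbol, 50 or more counts on average and full separation of the groups, up to 4 called members of each of 39 gene lists (or the member with most counts), and the genes that the study labels in its heatmap; other called genes were chosen after their values were seen. The comparison, its members and the lists were chosen with earlier results of these data known. Genes under the filter were compared by exact permutation of log2 CPM (prior count 2, scaled by library size without TMM). Their differences are not on the scale of edgeR's fold changes. Positions come from GENCODE M21 on the same build, whose gene bounds can differ from those of the counting. Promoters come from RefSeq on GRCm38.p6, and 98 of the 130 called genes had one. Motifs and the medians at other durations were examined after the calls were known. 267 identifiers had no symbol. Replicates within a group differed by more than sampling noise and are separate mice. The statistics were tested on simulated data. Alternatives were DESeq2 1.42.0, limma 3.58.1 (voom with sample weights), other scalings and filters, all 7 groups in one fit, a replicate block and leaving out mice. Single-cell and imaging data of the study were not analysed here.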

Additional observations from a re-analysis of the deposited data

Results flagged for a closer look

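In 80 named genes, 160 groups of 5 mice were tested for a mouse that stood apart from the other 4 (Dixon's test), and 17 (10.6%) held one. For independent, normally distributed values chance gives about 1 in 20. These groups came from the same mice and included genes of a few reads, so the share cannot be read as an excess over that rate. The 2-day mouse of replicate 1 accounted for 7 of them and the 1-day mouse of replicate 4 for 4. The 2-day mouse of replicate 1 was highest in its group for Acaa1b (40.4 CPM), Hspa5 (567 CPM), Kdr (268 CPM) and the luminal gene Csn3 (1.06 CPM), and lowest for Atf5 (97.2 CPM), Atp5b (1352 CPM) and Slc16a1 (356 CPM). The 1-day mouse of replicate 4 was lowest for BC028528 (9.23 CPM), Mgst1 (65.7 CPM) and Nr4a1 (3.85 CPM) and highest for Gpnmb (7.44 CPM). The 1-day mouse of replicate 5 was lowest for Cdkn1a (388 CPM) and Fgf1 (23.9 CPM) and highest for Trem2 (1.61 CPM). The 1-day mouse of replicate 1 was highest for Ppargc1a (734 CPM) and Slc25a34 (97.3 CPM), and that of replicate 2 for Spp1 (0.458 CPM).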

How the results depend on the processing

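All 130 called genes kept their sign under each alternative, which their selection on the same mice favours. Counts within 1.5 times of 130 came from RLE factors, library size only, the removal of mitochondrial genes and Gm42418, and a stricter filter. DESeq2 called 345 genes (208 higher, 137 lower), limma-voom with sample weights 223 (137 and 86), no filter 518 (353 and 165), and all 7 groups in one fit 410 (244 and 166). Of list members, DESeq2 called 31 higher and 17 lower, voom 21 higher, no filter 80 and 44, and the fit of 7 groups 32 and 21. Leaving out 1 mouse gave 29 to 206 calls, 19 to 131 of them higher and 10 to 75 lower, with 2 to 18 list members higher and 2 to 15 lower. Without both libraries that stood apart, added after seeing the data, 15 list members were higher. Same-numbered mice of the 2 groups did not deviate together (correlations from −0.053 to 0.12, beside −0.28 to 0.32 for other pairs). No pairing by number was seen, although so few correlations cannot exclude one. With the replicate number as a block, 75 genes were called, 52 higher and 23 lower, with 67 of the 130 kept and 6 list members lower.

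Some uncalled genes near 0 changed sign. With voom, Clock was at 0.019, Fabp4 at −0.031, Fasn at 0.040 and Slc25a34 at 0.030. With library size only, Fabp4 was at −0.00653 and Acly at −0.00695. Without mitochondrial genes Slc25a34 was at 0.0041, and with the block Acly was at −0.10. Without both libraries that stood apart, Clock was at 0.030, Fabp4 at −0.070, Fasn at 0.16 and Slc25a34 at 0.075. Without 1 mouse, Acly ran from −0.31 to 0.38, Slc25a34 from −0.11 to 0.081, Fasn from −0.29 to 0.22, Hspa5 from −0.16 to 0.044, Clock from −0.062 to 0.012, Fabp4 from −0.097 to 0.10, Ttn from −0.87 to 0.35 and Ighm from −0.018 to 0.85. The causes were not tested. At 0.151 to 0.289 CPM a read, genes of a few CPM rest on few counts.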
